A study of Mus musculus with 6 samples.

Results

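Mitochondrial complex I, the NADH dehydrogenase of the respiratory chain, was followed through the probes for its nuclear-encoded subunits in mouse tibialis anterior, a fast hindlimb muscle. Every probe whose platform symbol begins with Nduf followed by a, b, c, s or v and a number was taken, assembly factors excluded, which gave 51 of the 45281 probes on the array and 35 of the 19074 genes they name. Of these, 35 probes for 29 genes were kept because they were above background (detection p under 0.05) on at least 3 of 6 arrays, and 16 probes were not kept. Whole-muscle RNA of 3 Neb SH3-deleted mice (Neb∆SH3, mice whose nebulin lacks its SH3 domain) and of 3 wild type mice was hybridised, each mouse to 1 Illumina bead array. All mice were males aged 8 weeks on a mixed Sv129/Black Swiss background. Nebulin is a giant thin-filament protein whose SH3 domain lies in the Z-disc, and the comparison asks whether transcript levels in this muscle differ when that domain is missing. How the allele was made and whether the mice were littermates is not given in the sources used here.

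Complex I takes electrons from NADH, passes them along a chain of iron-sulfur clusters to ubiquinone, and pumps protons across the inner mitochondrial membrane. Its peripheral arm holds the N module, which oxidises NADH, and the Q module, where ubiquinone is reduced, while the membrane arm holds the proximal and distal pump modules. The catalytic core is encoded partly in the nucleus and partly on mitochondrial DNA, and the remaining subunits are nuclear-encoded accessory proteins. Subunits are grouped here by the modules described for human and bovine complex I.

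Few transcripts were measurable on these arrays. Between 4000 and 4667 probes were above background on the Neb SH3-deleted arrays, against 4506 to 5844 on the wild type arrays, and 3422 probes (7.56%) met the same filter as the complex I probes, of which 68.6% met it. With no transcript present, a detection p under 0.05 would by itself pass 2264 probes per array. The single Neb probe was above background on 0 of 6 arrays (detection p 0.543 to 0.882), so it gives no check of the genotype labels. All 10 probes for skeletal muscle fibre markers (Ckm, Acta1, Mylpf, Tnnt3, Tnni2, Tnnc2, Pvalb and Mb) were above background on all 6 arrays, as the tissue label requires. Arrays of the same genotype correlated at 0.923 to 0.957 over kept probes and arrays of different genotypes at 0.918 to 0.958. Neb SH3-deleted replicate 1 and wild type replicate 2 stood apart from the other 4 arrays on the first principal component (-12.4 and -10.7, against 5.09 to 6.64), which held 32.6% of the variance. On the second component Neb SH3-deleted replicate 3 stood apart (-13.2, against -4.93 to 6.17 on the other arrays).

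No complex I probe passed the test between genotypes. With limma over all 3422 kept probes, 0 of 35 complex I probes and 0% of all probes had a Benjamini-Hochberg adjusted p under 0.05, and the smallest adjusted p was 0.984 in both sets. Most complex I probes had their Neb SH3-deleted mean below their wild type mean by a small amount: 27 of 35 log2 differences (Neb SH3-deleted minus wild type) were negative and 8 positive, which is 77.1% negative against 56.1% of all kept probes. The median difference was -0.12 for complex I and -0.03 for all kept probes. The differences ran from -0.45 to 0.33 with quantile normalization. With median scaling some lay further from 0, among them Ndufs8 and Ndufb6 (-0.65 each) and Ndufa3 (-0.57). At an unadjusted p under 0.05 there was 1 complex I probe, Ndufb6, with a negative difference, and 0 with a positive one, where 4.3% of all kept probes passed that limit, 2.66% with a negative and 1.64% with a positive difference. Since these are whole-muscle samples, fewer cells rich in mitochondria and less RNA per cell cannot be told apart.

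**Figure D1:**
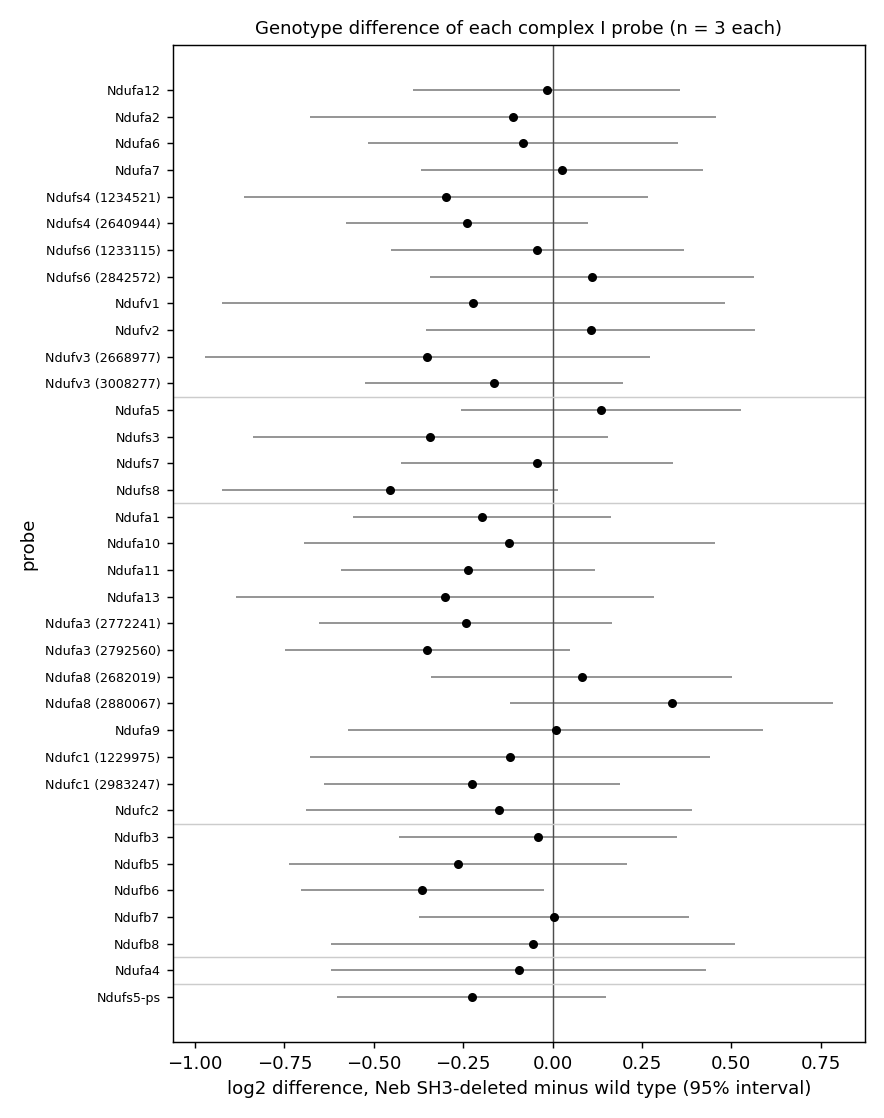
Log2 difference, Neb SH3-deleted minus wild type, of each of the 35 kept complex I probes, with its 95% interval from limma (n = 3 each), ordered by module from the N module at the top to Ndufa4 and the pseudogene Ndufs5-ps at the bottom. Of the 35 points 27 lie left of 0, and 1 interval (Ndufb6) excludes 0.

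The intervals set the precision of these statements. The 95% interval of a complex I probe reached a median of 0.434 log2 units to either side of its difference, against 0.395 for all kept probes, and the outermost bounds were -0.97 (Ndufv3) and 0.78 (Ndufa8). The background correction adds a constant of 16 intensity units before the log, which understates the change of dim probes.

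The catalytic core in the peripheral arm was represented by 6 probes, of which 5 were kept. Ndufs8, a Q-module subunit that carries iron-sulfur clusters on the way to ubiquinone, had the most negative difference of all complex I probes. Its log2 normalized intensity was 5.78, 5.71 and 5.11 in Neb SH3-deleted replicates 1, 2 and 3, against 6.25, 5.76 and 5.95 in wild type replicates 1, 2 and 3. The groups overlapped by a narrow margin, with Neb SH3-deleted replicate 1 beside wild type replicate 2, while the lowest value, on Neb SH3-deleted replicate 3, was well below the rest. The difference was -0.45 (SE 0.21, 95% interval -0.92 to 0.02), with a limma adjusted p of 0.984. Over the alternatives it stayed negative, from -0.69 without both arrays apart on the first principal component to -0.19 in the deposited processed values, and it was -0.24 without Neb SH3-deleted replicate 3.

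Ndufs3, the Q-module core subunit of the arm's stem, was at 5.20, 4.68 and 4.60 in Neb SH3-deleted replicates 1 to 3, against 4.76, 5.42 and 5.33 in wild type replicates 1 to 3. Its groups overlapped, since Neb SH3-deleted replicate 1 lay with the higher wild type arrays and wild type replicate 1 with the lower Neb SH3-deleted arrays, and the difference was -0.34 (-0.84 to 0.15). It was -0.55 without wild type replicate 1, -0.53 without Neb SH3-deleted replicate 1, -0.22 without wild type replicate 2 and -0.11 in the deposited processed values. Ndufs7, which holds the last iron-sulfur cluster before ubiquinone, was at 6.33, 5.88 and 6.09 in Neb SH3-deleted arrays, against 6.10, 6.30 and 6.03 in wild type arrays. Its difference of -0.044 (-0.42 to 0.34) was far inside the spread between replicates.

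The core subunits that take electrons from NADH belong to the N module. Ndufv1, which binds NADH and the flavin cofactor, was at 6.85, 6.08 and 7.47 in Neb SH3-deleted arrays, against 7.08, 7.38 and 6.60 in wild type arrays. The Neb SH3-deleted arrays held both the lowest and the highest value, so the difference of -0.22 had a wide interval (-0.93 to 0.48), and it was 0.14 without Neb SH3-deleted replicate 2. Ndufv2, an iron-sulfur partner of Ndufv1, was at 6.69, 6.20 and 5.85 in Neb SH3-deleted arrays, against 6.08, 6.19 and 6.15 in wild type arrays. The wild type arrays were close together (6.14 ± 0.055) and lay inside the range of the Neb SH3-deleted arrays (6.25 ± 0.42, SD, n = 3 each), with a difference of 0.11 (-0.35 to 0.57). With median scaling of the arrays this difference was -0.12. The probe for Ndufs1, the largest iron-sulfur subunit of the N module, was above background on 1 Neb SH3-deleted array and 0 wild type arrays and was not kept.

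**Figure D2:**
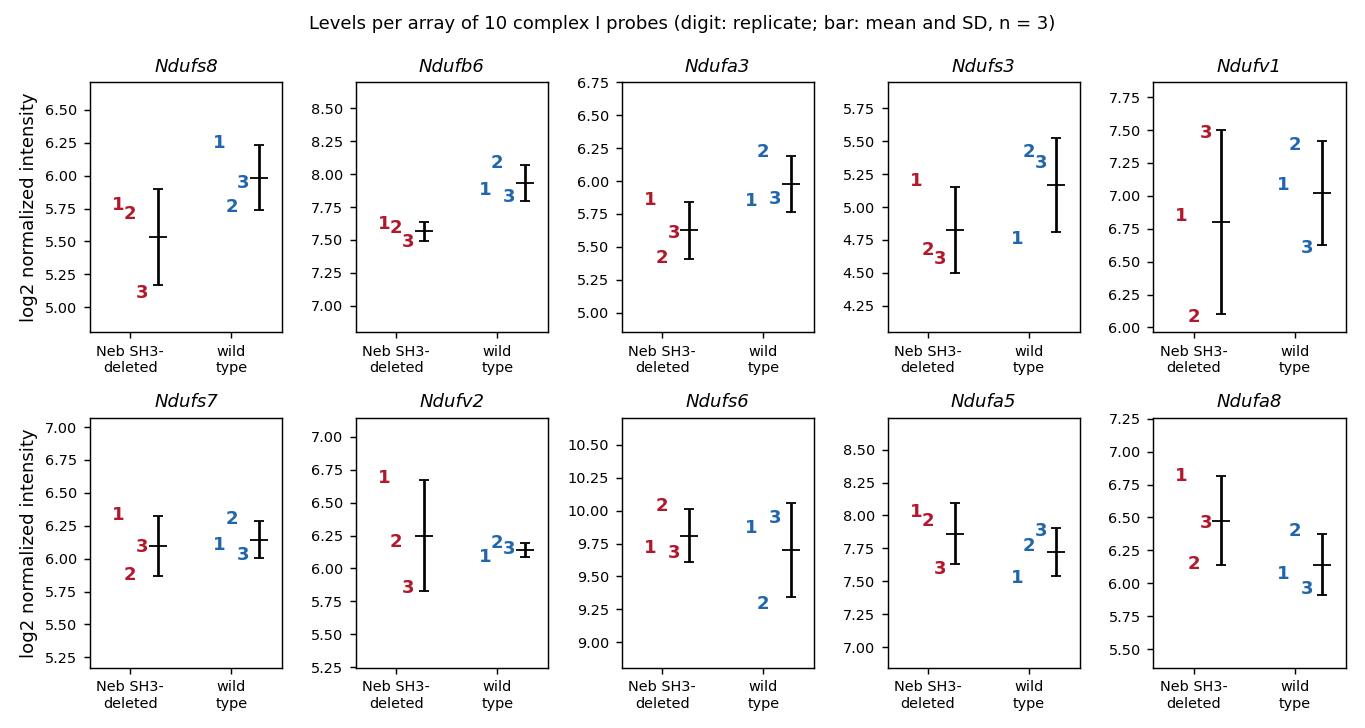
Log2 normalized intensity per array of 10 complex I probes (the 5 kept core subunits, and the 3 probes of smallest p in each direction, which include 1 core subunit), with Neb SH3-deleted arrays left of wild type arrays, digits giving the replicate and bars the mean and SD of n = 3. Each panel spans the same number of log2 units, and the genotypes separate for Ndufb6 alone among these 10.

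Among the accessory subunits, Ndufb6 of the distal membrane arm had the smallest unadjusted p of the 35 probes. It was at 7.62, 7.59 and 7.49 in Neb SH3-deleted replicates 1 to 3, against 7.88, 8.08 and 7.83 in wild type replicates 1 to 3. After normalization all Neb SH3-deleted arrays were below all wild type arrays, with a tight spread in both groups (7.57 ± 0.070 and 7.93 ± 0.14, SD, n = 3 each). The raw signals overlapped, at 220.9, 302 and 220.6 in Neb SH3-deleted arrays, against 364.7, 363.6 and 293.4 in wild type arrays. The log2 difference after normalization was -0.36 (SE 0.15, 95% interval -0.70 to -0.025), a change of -22.3%, with an unadjusted p of 0.0379 and an adjusted p of 0.984 (limma). Over the alternatives it ran from -0.65 with median scaling to -0.27 with no background correction. A second Ndufb6 probe was above background on 0 arrays and gives no second reading. The groups failed to overlap for 2 of 35 complex I probes, both with the Neb SH3-deleted arrays below. Among all kept probes 9.06% failed to overlap, 5.82% with the Neb SH3-deleted arrays below and 3.24% with them above. The other was a probe of Ndufs4, an accessory subunit that holds the N module in place, at 4.48, 4.63 and 4.50 in Neb SH3-deleted arrays, against 4.67, 4.92 and 4.74 in wild type arrays. The raw signals of this Ndufs4 probe overlapped, at 91.9 to 96.1 in Neb SH3-deleted arrays, against 95.4 to 99 in wild type arrays. Its log2 difference was -0.24 (-0.58 to 0.10), and the second kept Ndufs4 probe was at -0.30, with groups that overlapped.

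Ndufa3, a small accessory subunit of the membrane arm, had 2 kept probes with negative differences. The probe of smaller p was at 5.85, 5.42 and 5.61 in Neb SH3-deleted arrays, against 5.85, 6.22 and 5.86 in wild type arrays. Neb SH3-deleted replicate 1 was level with wild type replicates 1 and 3, and the difference was -0.35 (-0.75 to 0.048). It was -0.23 without wild type replicate 2, -0.15 in the deposited processed values and -0.57 with median scaling. The other Ndufa3 probe was at -0.24.

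Positive differences had intervals that included 0, as did all negative ones but that of Ndufb6. Ndufa8, an intermembrane-space subunit, was at 6.82, 6.14 and 6.46 in Neb SH3-deleted arrays, against 6.07, 6.40 and 5.95 in wild type arrays. Neb SH3-deleted replicate 2 lay among the wild type arrays, and the difference was 0.33 (-0.12 to 0.78), while the second Ndufa8 probe was at 0.08. Over the alternatives the probe at 0.33 stayed positive. It was at 0.16 without Neb SH3-deleted replicate 1, 0.50 without Neb SH3-deleted replicate 2 and 0.088 with median scaling. Ndufa5, an accessory subunit of the Q module, was at 8.03, 7.96 and 7.60 in Neb SH3-deleted arrays, against 7.53, 7.77 and 7.88 in wild type arrays. Its difference of 0.14 (-0.26 to 0.53) turned to -0.18 with median scaling. Ndufs6, a zinc-binding accessory subunit of the N module, was at 9.72, 10.04 and 9.68 in Neb SH3-deleted arrays, against 9.87, 9.29 and 9.94 in wild type arrays. Its difference of 0.11 (-0.34 to 0.56) was -0.096 without wild type replicate 2, the lowest array, and -0.0031 without Neb SH3-deleted replicate 2, the highest, and the second kept Ndufs6 probe was at -0.043.

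The remaining kept probes had intervals that included 0. In the N module Ndufv3 had probes at -0.35 and -0.16, Ndufa2 was at -0.11, Ndufa6 at -0.082, Ndufa12 at -0.017 and Ndufa7 at 0.025. In the proximal pump Ndufa13, also known as GRIM-19, was at -0.30, Ndufa11 at -0.24, Ndufa1 at -0.20, Ndufc2 at -0.15, Ndufa10 at -0.12 and Ndufa9 at 0.0096, and Ndufc1 had probes at -0.22 and -0.12. In the distal pump Ndufb5 was at -0.26, Ndufb8 at -0.055, Ndufb3 at -0.041 and Ndufb7 at 0.0039. Ndufa4, named for complex I but assigned to cytochrome c oxidase in human and bovine mitochondria, was at -0.095. Ndufs5-ps is annotated as a pseudogene and was at -0.23, and whether its probe also reads the Ndufs5 transcript was not tested. Leaving out Ndufa4 and Ndufs5-ps gave 25 of 33 negative differences with the same median of -0.12.

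By module, 9 of 12 N-module probes, 3 of 4 Q-module probes, 9 of 12 proximal-pump probes and 4 of 5 distal-pump probes had negative differences, with medians of -0.097, -0.19, -0.17 and -0.055. The 6 genes with 2 kept probes each had both probes on the same side of 0, except Ndufs6.

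The distal pump was the module least well measured, with 10 of its 15 probes not kept, against 4 of 16 in the N module, 1 of 5 in the Q module and 1 of 13 in the proximal pump. Of the 16 complex I probes not kept, 7 were above background on 0 arrays and 9 on 1 or 2. The genes Ndufb2, Ndufb4, Ndufb9, Ndufb10, Ndufb11 and Ndufs1 had no kept probe. Just inside the filter, Ndufb7 was above background on 1 Neb SH3-deleted and 2 wild type arrays. Just outside it were Ndufb2, with 1 probe above background on 0 Neb SH3-deleted and 2 wild type arrays and another on 1 of each, and an Ndufs4 probe above background on 0 Neb SH3-deleted and 2 wild type arrays. Among kept probes 30 were above background on all 6 arrays, and 23 of these had negative differences (76.7%), with a median of -0.14. No kept complex I probe was below background throughout a group.

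The array on which complex I was lowest was Neb SH3-deleted replicate 3. Each probe's deviation from its own mean over 6 arrays averaged 0.080, -0.052 and -0.22 on Neb SH3-deleted replicates 1, 2 and 3, against 0.0082, 0.10 and 0.085 on wild type replicates 1, 2 and 3. Thus Neb SH3-deleted replicate 1 lay with the wild type arrays, and replicate 3 lay apart from all others. Neb SH3-deleted replicate 3 was the lowest of 6 arrays for 15 of 35 complex I probes (42.9%), against 23.7% of all kept probes. It was also the array with the fewest complex I probes above background, since 34, 38 and 30 of 51 were detected on Neb SH3-deleted replicates 1 to 3, against 36, 36 and 39 on wild type replicates 1 to 3. In the same order, 4000, 4667 and 4041 of all probes were detected, against 5844, 4843 and 4506. The median raw signal of all probes was highest on Neb SH3-deleted replicate 3 (88.89, against 83.33 to 86.59 on the other arrays). This array also stood apart on the second principal component of all kept probes (-13.2, against -4.93 to 6.17 on the other arrays). The part of these array-wide features in the complex I values was not tested. Without Neb SH3-deleted replicate 3 the median difference was -0.047 and 62.9% of differences were negative, beside -0.013 and 52.7% for all kept probes. The share of negative differences was also 62.9% without wild type replicate 2 (53.9% of all kept probes), with a median of -0.14, and it was 68.6% without Neb SH3-deleted replicate 2 (57% of all).

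**Figure D3:**
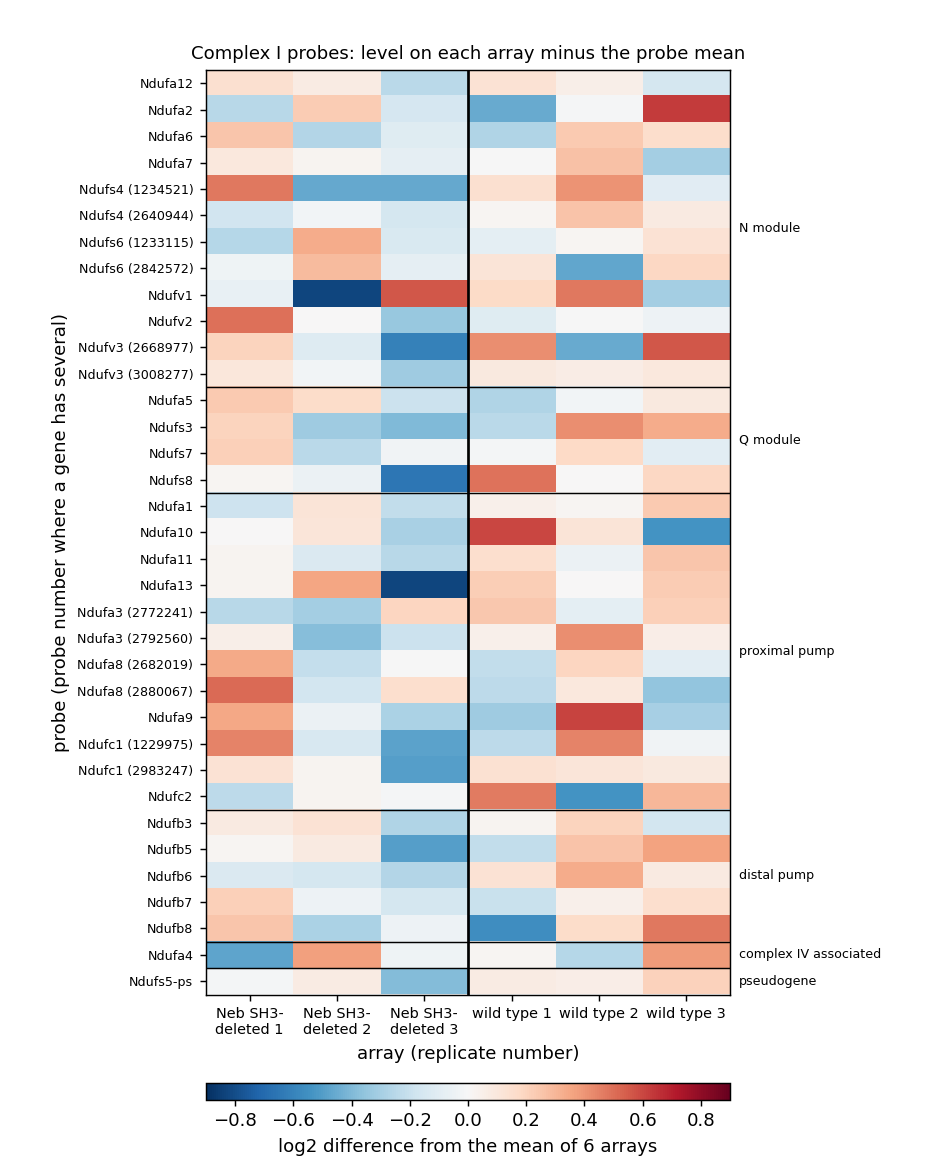
Level of each of the 35 kept complex I probes on each array minus the probe's mean over the 6 arrays (log2, red above and blue below), with Neb SH3-deleted arrays left of the vertical line, wild type arrays right of it, and modules divided by horizontal lines. Neb SH3-deleted replicate 3 is the bluest column and is the lowest array for 15 probes.

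Complex I probes differed among themselves in how they followed the arrays. In 7 of 35 (20%), namely Ndufa6, Ndufa7, Ndufa8 (1 probe), Ndufa9, Ndufc1 (1 probe), Ndufs4 (1 probe) and Ndufs7, the 2 highest were the arrays apart on the first principal component, against 8.59% of all kept probes. In Ndufa4 and Ndufc2 these were the 2 lowest arrays, a pattern seen in 9.7% of all kept probes. Leaving out both arrays, a choice made after seeing the data, gave a median of -0.13 with 82.9% negative, against -0.024 and 54.3% for all kept probes.

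How the arrays were scaled moved the size of the difference. The median of the complex I probes was -0.12 with quantile normalization, -0.13 with cyclic loess and -0.30 with median scaling, where all kept probes were at -0.029, -0.0016 and -0.095. The share of negative differences was 71.4% with cyclic loess (50.3% of all kept probes) and 97.1% with median scaling (69.7% of all kept probes). Under each of these scalings 0 complex I probes had an adjusted p under 0.05.

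**Figure D4:**
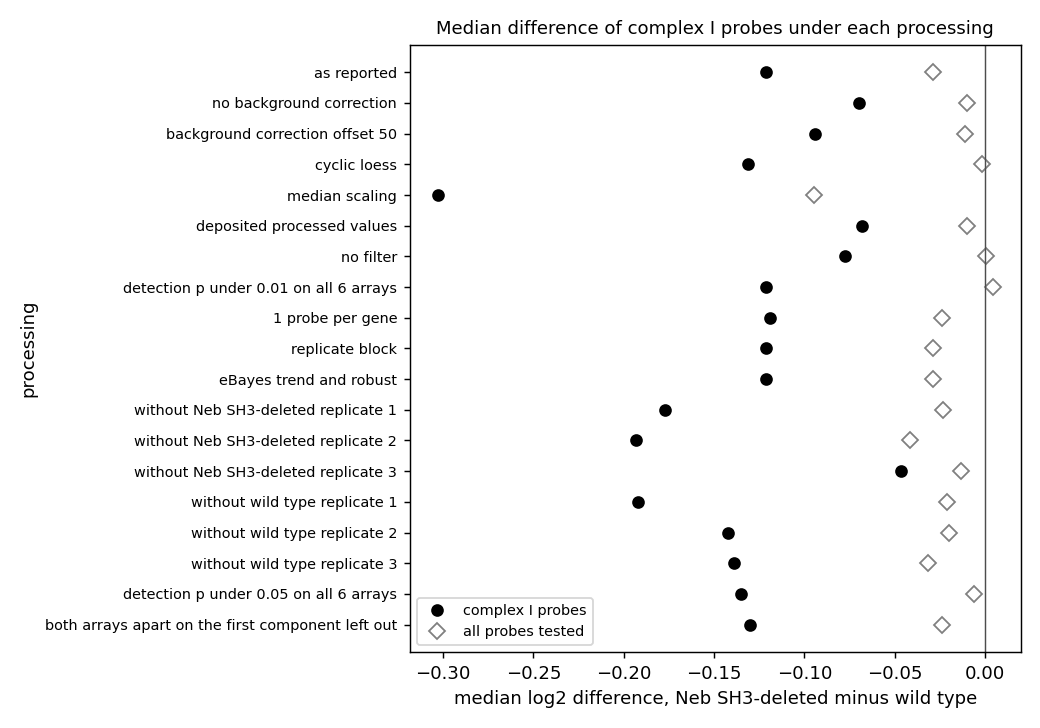
Median log2 difference, Neb SH3-deleted minus wild type, of the complex I probes (filled points) and of all probes tested (open diamonds) as reported and under 18 other ways of processing. The complex I median is below 0 in each, from -0.30 with median scaling to -0.047 without Neb SH3-deleted replicate 3. The replicate block and the trend and robust options of eBayes cannot move it.

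Subunits encoded on mitochondrial DNA were read by 5 probes, 3 of them kept, with 2 negative differences and 1 positive (median -0.28), and 0 passed the adjusted p. ND1, the membrane core subunit beside the ubiquinone site, was at 5.45, 6.31 and 5.75 in Neb SH3-deleted arrays, against 6.72, 5.91 and 6.76 in wild type arrays. The groups overlapped through wild type replicate 2, and the difference was -0.63 (-1.23 to -0.028, limma adjusted p 0.984). ND4L was at -0.28 (-0.88 to 0.32) and ND4 at 0.057 (-0.41 to 0.53). The mean deviation of the 3 probes was -0.39, 0.32 and -0.35 on Neb SH3-deleted replicates 1 to 3, against 0.49, -0.23 and 0.16 on wild type replicates 1 to 3. Both arrays apart on the first principal component were thus below 0 for the mitochondrial subunits and above 0 for the nuclear ones, and Neb SH3-deleted replicate 3 was low for both.

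The other respiratory complexes were described by the same fit, with 0 adjusted calls in each. Negative differences were found for 2 of 2 kept probes of complex II (median -0.18), 3 of 7 of complex III (0.088), 7 of 11 of complex IV (-0.12) and 11 of 16 of complex V (-0.069). Cox8b, a muscle subunit of cytochrome c oxidase, was at -0.75 (-1.23 to -0.28) on its single kept probe. Genes with 2 kept probes differed between them: Cox5b was at 0.48 (0.014 to 0.94) and 0.17 (-0.22 to 0.57), and the ATP synthase subunits were at -0.53 (-0.87 to -0.20) and -0.34 (-0.70 to 0.019) for Atp5j and at -0.59 (-1.14 to -0.047) and -0.16 (-0.72 to 0.39) for Atp5l. The probes of Uqcr10 of complex III went opposite ways, at 0.48 (0.0046 to 0.95) and -0.32 (-0.70 to 0.066). So did those of Atp5pb of complex V, at -0.18 (-0.59 to 0.24) and 0.19 (-0.20 to 0.58). Each of these had a limma adjusted p of 0.984. Cox6b1 of complex IV was at -0.48 (-1.03 to 0.070) and -0.12 (-0.59 to 0.35) on its 2 kept probes. In complex II, Sdhb was at -0.25 and Sdhc at -0.12, and in complex III Uqcr11 was at 0.31. Neb SH3-deleted replicate 3 was at a mean deviation of -0.15, 0.041, -0.12 and -0.14 for complexes II, III, IV and V. Whether complex I differs from these complexes was not tested.

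**Figure D5:**
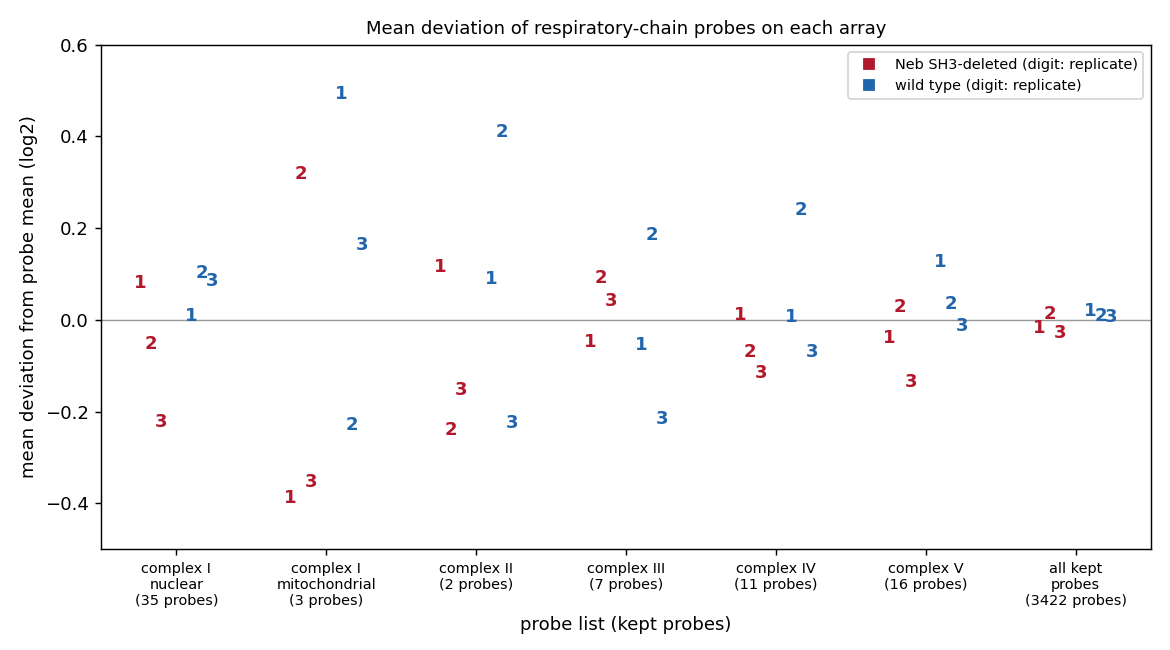
Mean deviation (log2) of the kept probes of each respiratory complex from their own means over the 6 arrays, with Neb SH3-deleted replicates (red digits) left of wild type replicates (blue digits) in each column. Neb SH3-deleted replicate 3 is at -0.22 for nuclear complex I, and Neb SH3-deleted replicate 1 is above 0 there and at -0.39 for the mitochondrial subunits.

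Genes that build or regulate the complex were mostly too dim to measure. Of 28 probes for assembly factors 4 were kept, with 3 negative differences (median -0.12), among them Ndufaf1 at -0.18 and Ndufaf4 at -0.24. Ndufab1, the mitochondrial acyl carrier protein that is also a complex I subunit but lies outside the naming rule, had 3 kept probes, all with negative differences. The probe of smallest p was at 5.05, 5.41 and 5.41 in Neb SH3-deleted arrays, against 5.72, 5.67 and 5.77 in wild type arrays. These groups did not overlap, and the difference was -0.43 (-0.79 to -0.075, limma adjusted p 0.984). The further Ndufab1 probes were at -0.27 (-0.62 to 0.085) and -0.18 (-0.74 to 0.39), with intervals that included 0. For 2 of the 3 probes all Neb SH3-deleted arrays were below all wild type arrays, against 5.82% of all kept probes. Of 16 probes for regulators of mitochondrial biogenesis 4 were kept, with 2 negative differences, Esrra at -0.22 and 0.087 on its 2 probes and Perm1 at 0.28, while Ppargc1a, Nrf1, Gabpa and Tfam had 0 kept probes.

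Markers of fibre types and of other cells varied beside these values. The sums below are of linear normalized intensities over kept probes. For slow fibre markers (3 of 12 probes kept, Myh7 and Tnni1 not among them) the sum was 154 to 198 in Neb SH3-deleted arrays, against 138 to 252 in wild type arrays, with Atp2a2 at -0.23, Myl2 at -0.26 and Myl3 at 0.070. For fast fibre markers (6 of 8 kept) it was 1249 to 1527, against 910.7 to 1439 in wild type arrays, with 4 positive and 2 negative differences, among them Actn3 at 0.67, 0.23 and -0.027 on its 3 probes and Mybpc2 at -0.29. Erythrocyte markers (8 of 12 kept) summed to 881 to 984 in Neb SH3-deleted arrays, against 461.5 to 752.5 in wild type arrays, so these sums did not overlap. By probe, the groups failed to overlap for 1 of the 8, which stand for 3 genes. Among all kept probes 3.24% failed to overlap with the Neb SH3-deleted arrays above. All 8 erythrocyte probes had positive differences, from 0.082 to 1.085 on the 5 probes of Hbb-bs and at 0.61 and 0.39 on the 2 of Hbb-bt. Fibroblast markers (5 of 13 kept) summed to 321 to 521, against 172 to 366 in wild type arrays, with the highest sum on Neb SH3-deleted replicate 3, with 4 positive and 1 negative differences, among them Sparc at 0.75 and 0.49 on its 2 probes and Col1a1 at 0.38. Endothelial (1 of 9 probes kept, Pecam1 at -0.15), pericyte (1 of 3, Rgs5 at -0.40) and leukocyte markers (1 of 10, Lyz2 at -0.26) were mostly below background, and 0 probes were kept for adipocyte (4), satellite cell (2) and Schwann cell markers. The part of these cells in the complex I values was not tested.

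Sequence near the transcription start was compared as a property the naming rule did not use. RefSeq windows of GRCm38.p6, from 250 bases before to 50 after the start, were matched for 31 of the 35 genes (33 windows) and searched on both strands for letters of 5 factors linked to mitochondrial or housekeeping promoters. The letters were settled after trying several lengths of them on these windows. AAGATGGC, the core of the YY1 motif, was in 7 of 33 complex I windows (21.2%), against 2.75% of all 32851 windows. GCATGCGC of the NRF-1 motif was in 9.09% (2.71% of all), CCGGAAG of the ETS motif that GABPA binds in 12.1% (8.86%), AAGGTCA of the ERR motif in 6.06% (4.72%) and CCAAT, bound by NF-Y, in 30.3% (37.4%). A match is a description of the letters and no evidence of binding, and overlap of AAGATGGC with a start codon, which its ATG allows, was not tested.

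All 7 AAGATGGC matches lay on the gene's own strand, between 23 and 46 bases into the transcript, and all 7 genes had a kept probe. The stretches are shown because this position is what these genes share, 5′ to 3′ on the gene's strand with the match in capitals.
Ndufa3 (chr7:3617384-3617413, plus strand): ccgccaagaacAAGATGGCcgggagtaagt
Ndufa9 (chr6:126849097-126849126, minus strand): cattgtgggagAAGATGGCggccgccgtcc
Ndufb8 (chr19:44555393-44555422, minus strand): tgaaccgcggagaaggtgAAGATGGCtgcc
Ndufc1 (chr3:51408915-51408944, minus strand): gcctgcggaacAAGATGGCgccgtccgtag
Ndufs4 (chr13:114388045-114388074, minus strand): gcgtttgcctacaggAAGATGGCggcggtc
Ndufs6 (chr13:73328433-73328462, minus strand): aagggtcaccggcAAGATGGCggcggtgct
Ndufs7 (chr10:80249462-80249491, plus strand): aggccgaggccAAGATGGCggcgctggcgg
The kept probes of these genes had differences from -0.35 (Ndufa3) to 0.11 (Ndufs6), on both sides of 0.

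The 250 bases before the start are shown for the members with the most negative difference (Ndufs8), the smallest unadjusted p (Ndufb6) and the most positive difference (Ndufa8), with every match to the searched letters in capitals.
Ndufs8 (chr19:3912775-3913024, minus strand): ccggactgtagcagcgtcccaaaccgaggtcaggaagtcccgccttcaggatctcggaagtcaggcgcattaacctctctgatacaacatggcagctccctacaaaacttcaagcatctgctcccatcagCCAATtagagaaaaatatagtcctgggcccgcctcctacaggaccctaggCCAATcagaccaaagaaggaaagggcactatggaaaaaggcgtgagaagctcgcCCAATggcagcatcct
Ndufb6 (chr4:40279422-40279671, minus strand): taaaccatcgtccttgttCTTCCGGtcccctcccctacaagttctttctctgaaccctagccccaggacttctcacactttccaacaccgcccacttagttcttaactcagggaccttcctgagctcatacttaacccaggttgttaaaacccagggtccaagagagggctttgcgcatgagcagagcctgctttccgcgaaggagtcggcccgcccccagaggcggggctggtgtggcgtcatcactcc
Ndufa8 (chr2:36049339-36049588, minus strand): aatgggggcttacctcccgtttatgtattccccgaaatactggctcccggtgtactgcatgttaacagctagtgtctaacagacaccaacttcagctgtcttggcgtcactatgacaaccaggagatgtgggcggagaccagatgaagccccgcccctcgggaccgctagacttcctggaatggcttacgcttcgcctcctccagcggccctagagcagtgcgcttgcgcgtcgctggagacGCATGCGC
Ndufs8 held 3 CCAAT matches, Ndufb6 an ETS match on the opposite strand (CTTCCGG), and Ndufa8 an NRF-1 match that ends at the base before the start.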

How the data were processed

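Per the labels' protocols, Trizol RNA was labelled with biotin by the Ambion MessageAmp kit. Per the file headers, the authors deposited non-normalized intensity (AVG_Signal) and its detection p-value, by probe and array. The authors also deposited processed log2 values, which share 1 distribution (median 6.1 per array) and follow the signal in rank (Spearman 1); whether they are plain log2 or variance-stabilized is unknown. Use of lumi is recorded in the submitters' processing notes.

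From the intensities, background was corrected by limma's normexp fit on detection p-values (offset 16), followed by log2 and quantile normalization. Each kept probe was fitted with limma 3.58.1 in R 4.3.3 (lmFit, eBayes, two-sided, no covariate) and adjusted by Benjamini-Hochberg over all 3422 kept probes. The path was tested on simulated data, in which the changes were larger than any complex I difference here. That test does not show how changes of the size seen here are handled. A single symbol was annotated for 34885 probes, several for 18 and none for 10378.

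Members, lists and alternatives were chosen with earlier results of these data known. Probes are described in full for core subunits, an unadjusted p under 0.05 and the 3 smallest p in each direction, and up to 2 genes per other list. ND4, Myl3, Cox6b1, Atp5pb and the further probes of genes already named were added after their values were seen. The series' design text calls the samples biological triplicates.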

Additional observations from a re-analysis of the deposited data

How the results depend on the processing

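Under all 18 alternatives 0 complex I probes and 0 probes of any kind had a limma adjusted p under 0.05. At an unadjusted limma p under 0.05 there were 0 to 5 complex I probes (1 as reported) and 36 to 1895 of all probes (147 as reported). The extremes for all probes came from a detection p under 0.01 on all 6 arrays (1141 probes tested) and from no filter (45281 tested). The 5 complex I probes, of 35, came with median scaling, where 181 of all 3422 kept probes passed that limit. Of the alternatives, the replicate block and the trend and robust options of eBayes cannot move the complex I median. It kept its sign in 18 of 18, those included. It moved by more than the replicate SD (0.113) with median scaling (-0.303), and lay between -0.193 and -0.047 when single arrays were omitted, nearest 0 without Neb SH3-deleted replicate 3. It was nearer 0 without background correction (-0.070), with the deposited values (-0.068) and with no filter (-0.077). With the replicate number as a block there were 0 calls, and 117 probes had an unadjusted limma p under 0.05. The median (-0.121) is fixed there by the balanced design. Same-numbered samples deviated with correlations of -0.218, -0.179 and 0.0937, so the numbers are not shown to pair the mice. The filters, 1 probe per gene, the replicate block and the eBayes options leave a probe's difference unchanged and could not turn any sign. Counting those settings, 12 of 178 values turned in sign among the 10 probes described in full. With median scaling these were Ndufa5 (-0.18), Ndufs6 (-0.33) and Ndufv2 (-0.12), with cyclic loess Ndufs6 (-0.011), and with both arrays apart on the first component left out Ndufs6 (-0.049) and Ndufv2 (-0.089). When single arrays were omitted Ndufs6 ran from -0.096 to 0.23, Ndufs7 from -0.16 to 0.067, Ndufv1 from -0.56 to 0.14 and Ndufv2 from -0.12 to 0.30. The cause was not tested. The Ndufa3 probe had no value with 1 probe per gene, where its other probe was taken, and Ndufs3 had none under the strictest detection filter. The omission of both arrays and the filter of detection on all 6 arrays were chosen after seeing the data. A block for slide was not fitted, since no slide is named in the sources used here. Signal over background limits these values, as 71.6% of all probes were above background on no array.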
